A study of Mus musculus with 20 samples.

Results

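The red blood cell miRNAs miR-451, miR-144, miR-144* (the opposite strand of the miR-144 hairpin), and miR-486 were followed in the left ventricle of the mouse heart under pressure overload. They were chosen by name, as 4 of the 1086 mouse probes of the array, whose names carry the prefix mmu-. For 3 of them the array has a probe of exactly that name. The probe of miR-486 is named for miR-3107 and miR-486 together, so its values belong to both names. All 4 probes were among the 928 miRNAs tested, since the filter removed a probe only where every spot of every array carried a negative quality flag.

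The mice were male C57BL/6J, 8 weeks old, and had either transverse aortic banding (TAB), which narrows the aorta and makes the left ventricle pump against a higher pressure, or a sham operation. Left ventricles were taken on days 3, 5, 7, 14, and 28, counted from the operation, and 2 arrays were made for each surgery and day, 20 in all. According to the methods, repeated arrays are technical replicates, so each pair was averaged and the study holds 5 TAB and 5 sham samples, 1 for each day. How many hearts gave RNA to an array is not stated, and the 5 samples of a surgery differ in day. The TAB day 14 arrays are titled 14 days and carry 15 days as their condition label, and the title was used.

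Red blood cells lose their nucleus as they mature but keep miRNAs made in their precursors, so any tissue that holds blood also holds these miRNAs. The miR-144 and miR-451 hairpins are transcribed together in red cell precursors under the factor GATA1. The miR-451 hairpin is cut by Ago2 instead of Dicer, and miR-451 is known to act on Ywhaz and Cab39 during the maturation of red cells. The miR-486 gene lies inside the ankyrin gene Ank1, and miR-486 is abundant both in red cells and in muscle. A heart muscle sample can thus hold miR-486 from the muscle and from the blood.

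The sequences are shown because they set the strands of the cluster apart and show that both hairpins come from the same short stretch of chromosome 11. RefSeq (build GRCm38.p6) held a mature sequence for 3 of the 4 miRNAs. Capitals mark the seed, bases 2 to 8, with which a miRNA pairs to its targets.
miR-451: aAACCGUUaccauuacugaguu
miR-144: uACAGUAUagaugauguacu
miR-144*: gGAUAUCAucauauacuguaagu
The 3 seeds differ from each other, and none was shared with another of the 1738 mature mouse sequences of the table. On the plus strand, miR-144* lies at chr11:78073010-78073032, miR-144 at chr11:78073047-78073066, and miR-451 at chr11:78073186-78073207. Both strands of the first hairpin have a probe, and for the second hairpin the probe of miR-451 was used. In the hairpins, capitals mark these mature sequences.
Mir144: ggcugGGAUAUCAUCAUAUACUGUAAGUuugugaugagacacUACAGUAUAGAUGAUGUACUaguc
Mir451a: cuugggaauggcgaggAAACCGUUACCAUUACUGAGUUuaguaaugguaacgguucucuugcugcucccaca
The hairpins are 66 and 72 bases long and 99 bases apart. The mature miR-451 sequence of the second hairpin runs on into its loop. No sequence is shown for miR-486.

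Each probe was printed in 3 spots, and the raw intensity of a miRNA is the median of its 3 spots on the scale of the scanner. A miRNA is called found where 2 or more of its 3 spots were free of a negative flag, and 436 of the 928 miRNAs (47%) were found on all 20 arrays. TAB arrays were dimmer as a whole: the 75th percentile of their raw intensity lay between 180 and 288, against 303 to 444 in sham. A TAB array had 490 to 648 miRNAs found, and a sham array 570 to 698. On the first principal component (62.4% of the variance) the sham day 14 arrays, at -2.16 and -1.31, lay apart from the other sham arrays (-8.06 to -6.78) and nearer to the TAB arrays (4.92 to 7.66). Values were log2-transformed and quantile-normalized over the 20 arrays, which gives every array the same distribution, and "level" below means this normalized log2 intensity. The 7 heart muscle miRNAs checked, miR-1a, miR-133a, miR-133b, miR-208a-3p, miR-208b, miR-499, and miR-378, were found on all 20 arrays.

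miR-451 and miR-486 were found on every array, and the strands of the miR-144 hairpin were near the limit of detection. The raw intensity of mmu-miR-451 ranged over 157 to 329 (median 256) in TAB and 132 to 232 (median 147) in sham, and none of its spots carried a negative flag. That of mmu-miR-486 ranged over 371 to 907 (median 626) in TAB and 744 to 1822 (median 1201) in sham. Before any scaling, miR-451 was thus brighter and miR-486 dimmer on the typical TAB array, while the 75th percentile of all miRNAs was lower on every TAB array. Raw intensities of mmu-miR-144 were 80 to 106 in TAB and 84 to 90 in sham, and those of mmu-miR-144* were 69 to 84 and 73 to 94. Empty spots had medians of 65 to 73 in TAB and 68 to 74 in sham.

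miR-144 exceeded the 95th percentile of the empty spots on all 20 arrays, but its spots often carried a negative flag. It was found on 5 TAB arrays (both arrays of day 7, both of day 14, and 1 of day 28) and on 0 sham arrays. Being found on no sham array and on at least 1 TAB array was shared by 27 of the 928 miRNAs (2.91%). Of its 30 spots in each surgery, 14 were free of a negative flag in TAB and 2 in sham. miR-144* was found on 1 array, a sham array of day 3, and exceeded the 95th percentile of the empty spots on 9 TAB and 9 sham arrays.

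**Figure D1:**
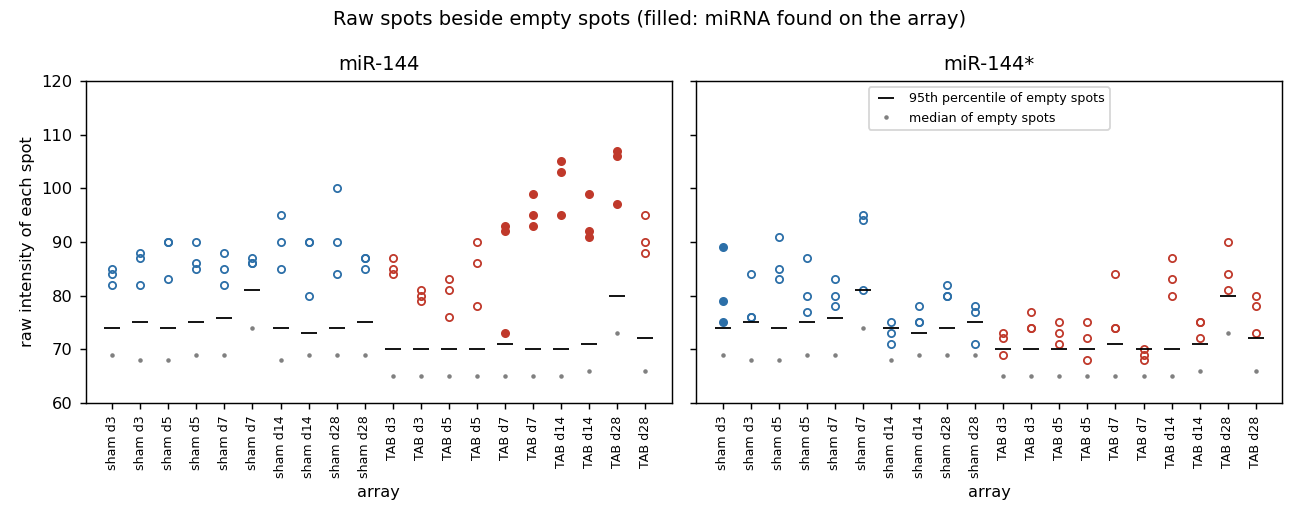
Raw intensity of each of the 3 spots of miR-144 (left) and miR-144* (right) on every array, sham in blue and TAB in red, with the median (dots) and the 95th percentile (dashes) of the empty spots of that array. Filled circles mark arrays on which the miRNA was found, which were 5 TAB arrays for miR-144 and 1 sham array for miR-144*.

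mmu-miR-451 was higher after TAB on each day. Its level on days 3, 5, 7, 14, and 28 was 7.74, 8.17, 8.61, 8.25, and 8.26 after TAB. After the sham operation it was 7.02, 6.87, 6.93, 7.53, and 7.28. The groups did not overlap at this normalized level: the lowest TAB sample, day 3, lay above the highest sham sample, day 14. Without scaling they did overlap, with log2 intensities of 7.48 and 7.59 at TAB days 3 and 5 and 7.76 at sham day 14. The mean level was 8.20 ± 0.31 (SD, n = 5) in TAB and 7.12 ± 0.27 (SD, n = 5) in sham. The log2 difference over the 5 days was 1.08 ± 0.15 (SE), which is 2.11-fold with a 95% interval of 1.63 to 2.75. It passed the test in limma with day as a block (adjusted p = 0.00488, threshold 0.05), as did 179 of the 928 miRNAs (19.3%) in the raised direction, and among all 928 differences it ranked 18 from the top. Levels without overlap and higher in TAB were seen for 15.9% of all miRNAs. The error of this test is the variation of the difference between days, since each day has 1 sample of each surgery.

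mmu-miR-144, made from the same transcript, was also higher on each day, by less. Its TAB levels were 6.51, 6.61, 6.80, 6.61, and 6.69 on days 3, 5, 7, 14, and 28. Its sham levels were 6.33, 6.37, 6.32, 6.40, and 6.45, all below the lowest TAB sample. Without scaling this did not hold: TAB days 3 (6.37) and 5 (6.38) lay below every sham sample, of which day 3 was the lowest (6.42). The mean level was 6.64 ± 0.11 (SD, n = 5) in TAB and 6.37 ± 0.05 (SD, n = 5) in sham, and the log2 difference of 0.27 ± 0.05 (SE) passed the test (adjusted p = 0.0122). The measured difference is 1.20-fold with a 95% interval of 1.10 to 1.32. Since miR-144 was found on no sham array, the difference was also taken with each undetected sham level raised to the lowest found miRNA of its array. That moved the mean sham level only from 6.375 to 6.376 and left the difference at 1.20-fold, so it adds no bound beyond the measured value. It covers neither the scaling nor the spread between samples. When the median of the empty spots was subtracted before the log, the log2 difference of miR-144 was 1.06 ± 0.19 (SE) and that of miR-451 1.70 ± 0.24 (SE), so the size of both depends on whether the unsubtracted background is left in.

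For mmu-miR-144*, no difference passed the test. Its level was 6.31 ± 0.02 (SD, n = 5) in TAB and 6.25 ± 0.08 (SD, n = 5) in sham. The samples overlapped, with 6.28 to 6.34 in TAB and 6.13 to 6.35 in sham. The log2 difference was 0.06 ± 0.05 (SE), with a 95% interval of -0.05 to 0.17 (adjusted p = 0.312). Under other scalings of the arrays it passed as raised or turned direction.

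mmu-miR-486 was lower after TAB on 4 of the 5 days, a difference that did not pass the test. Its TAB levels were 9.65, 9.67, 9.34, 9.60, and 9.89 on days 3, 5, 7, 14, and 28. Its sham levels were 9.88, 9.78, 9.71, 10.20, and 9.52. The samples overlapped, and day 28 was the day on which TAB was the higher. The mean level was 9.63 ± 0.20 (SD, n = 5) in TAB and 9.82 ± 0.25 (SD, n = 5) in sham. The log2 difference of -0.19 ± 0.14 (SE) did not pass the test (adjusted p = 0.316), and its 95% interval of -0.52 to 0.15 lies wholly below that of miR-451 (0.70 to 1.46). For comparison, 202 of the 928 miRNAs (21.8%) passed in the lowered direction.

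The repeated arrays of miR-486 differed more than those of the cluster miRNAs. The level of the 2 arrays of a pair differed by a median of 0.21 for miR-486, against 0.10 for miR-451, 0.06 for miR-144, and 0.08 for miR-144*. These gaps are not on equal footing. The cluster miRNAs lay nearer to the empty spots, where background left in the intensities narrows a log2 gap. The size of that effect here was not tested. The widest gap of miR-486, 0.80, was that of the TAB day 3 pair, whose raw intensities were 907 and 411. The mean log2 intensity of the spike-in controls, RNAs added to each labelling, was 13.7 and 12.8 on those arrays. The part of the spike-in difference in the gap was not tested. Without day 3 the log2 difference of miR-486 was -0.18 (adjusted p = 0.477), without day 14, whose sham sample was the highest, it was -0.08 (adjusted p = 0.640), and without day 28 it was -0.33 (adjusted p = 0.0542).

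The opposite strand of the same hairpin, miR-486*, on a probe shared with miR-3107*, was found on all 20 arrays and gave a second reading of it. Its level was 7.60 ± 0.14 (SD, n = 5) in TAB and 7.72 ± 0.16 (SD, n = 5) in sham. The log2 difference of -0.12 ± 0.11 (SE) did not pass the test (adjusted p = 0.432), with a 95% interval of -0.38 to 0.15.

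**Figure D2:**
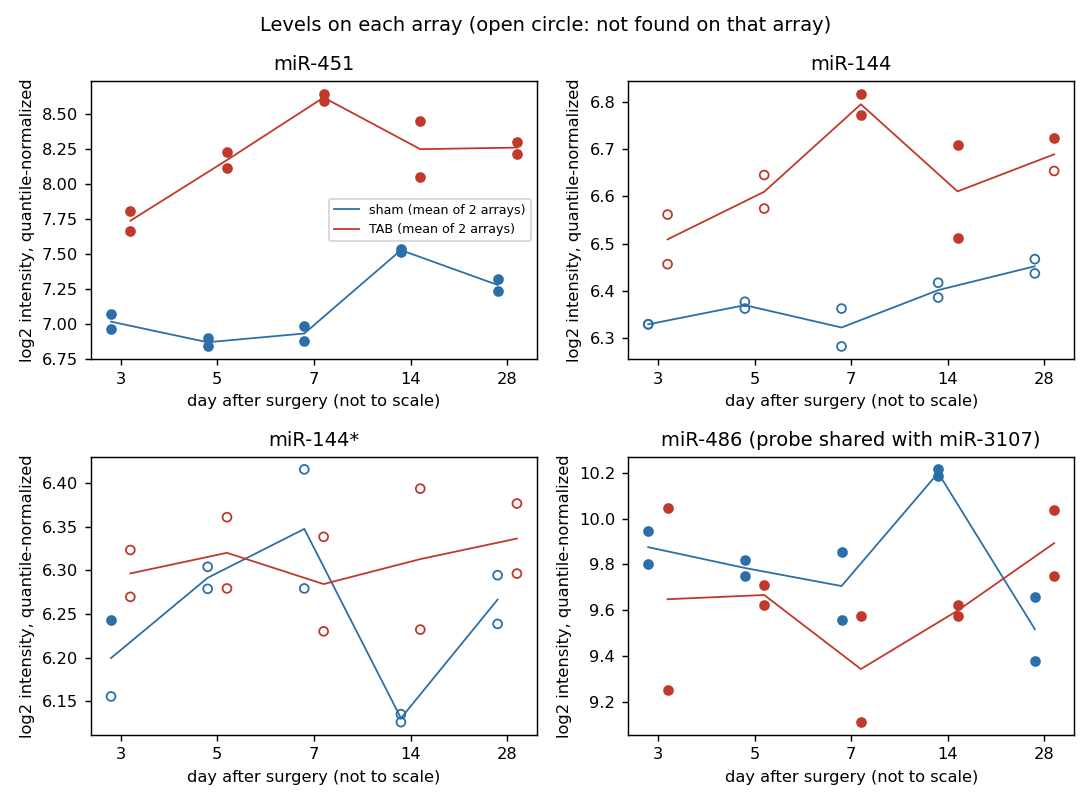
Level (normalized log2 intensity) of each miRNA by day after surgery, sham in blue and TAB in red. Each circle is 1 array, open where the miRNA was not found, and lines join the means of the 2 arrays; for miR-451 and miR-144 every TAB mean lies above every sham mean, and for miR-144* and miR-486 the lines cross.

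Each day was then tested on its own arrays, with the spread between repeated arrays as the error, so that a call on a day compares 2 RNA samples and not the surgeries in general. miR-451 passed on all 5 days, as did 17.7%, 19.1%, 17.6%, 12.3%, and 18.1% of all miRNAs in the raised direction on the respective days. Its log2 difference was 0.72, 1.30, 1.68, 0.72, and 0.98 on these days, each ± 0.10 (SE), or 1.65-, 2.46-, 3.21-, 1.65-, and 1.97-fold. The adjusted p in limma was 0.000162, 7.29e-07, 8.03e-08, 0.000282, and 8.51e-06. The difference rose to day 7 and was smaller at day 14, where the sham sample was highest.

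miR-144 followed with its largest log2 difference on the same day. It was 0.18, 0.24, 0.47, 0.21, and 0.24 on days 3, 5, 7, 14, and 28, each ± 0.07 (SE). It passed on 4 of the 5 days, with an adjusted p in limma of 0.0502 at day 3, where it did not pass, and 0.0111, 9.51e-05, 0.0345, and 0.0119 on the later days. Without scaling it passed on 0 days, and with a quantile target for each surgery on 1, day 7. miR-144* passed on 0 of the 5 days, with log2 differences of -0.06 to 0.18, but on 4 days as raised with the 75th percentile, on 5 in the deposited processed table, and on 1 as lowered without scaling or with a target for each surgery.

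With quantile normalization over the 20 arrays, miR-486 also passed on 0 of the 5 days. Its log2 difference was -0.23, -0.12, -0.36, -0.60, and 0.38 on days 3, 5, 7, 14, and 28, each ± 0.21 (SE). In the lowered direction 17.8%, 20.5%, 16.2%, 14.3%, and 23.2% of all miRNAs passed on these days. The lowest adjusted p was 0.0520, at day 14, where the sham level of miR-486 was the highest of all 10 samples. Under other scalings miR-486 did pass as lowered, on 4 days without scaling and with a quantile target for each surgery, and on 2 days (7 and 14) with the 75th percentile and in the deposited processed table. At day 14 miR-486* passed with a log2 difference of -0.46 ± 0.14 (SE, adjusted p = 0.0272).

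**Figure D3:**
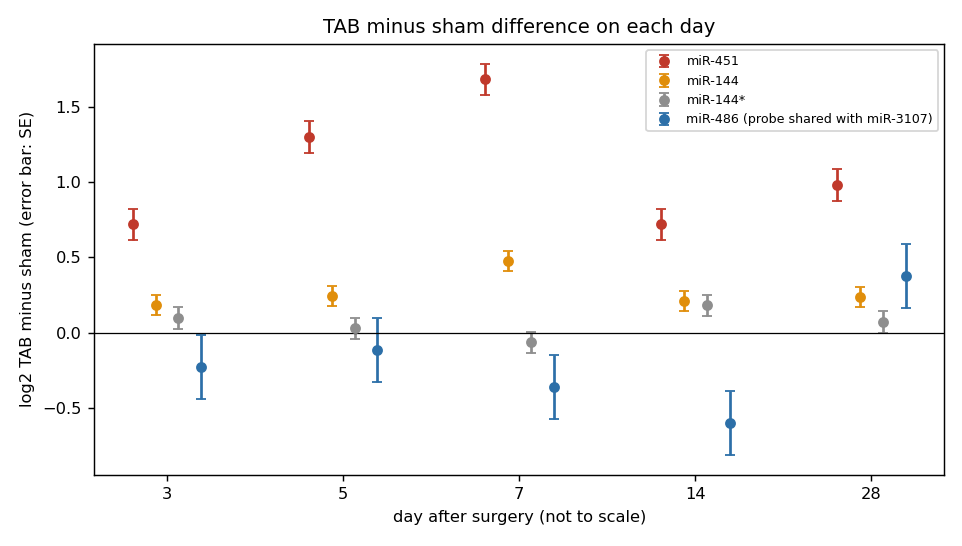
Difference between TAB and sham in normalized log2 intensity at each day, with the SE from repeated arrays (2 arrays for each surgery and day). miR-451 lies above the other miRNAs on every day and is highest at day 7 (1.68), and miR-486 lies below 0 on every day but day 28 (0.38).

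Whether the difference varied between days was tested with the interaction of surgery and day in limma. It did for miR-451 (adjusted p = 0.00200), as for 19.9% of all miRNAs. The adjusted p was 0.147 for miR-144, 0.372 for miR-144*, and 0.167 for miR-486, none of which passed. The error of the interaction, and of the contrast of late with early days below, was the spread between repeated arrays. A call thus compares the RNA samples of these days, and not early and late hearts in general. The sham level of miR-451 itself was higher on the late days: the mean of days 14 and 28 minus the mean of days 3, 5, and 7 was 0.46 ± 0.07 (SE) in sham (adjusted p = 0.000927), where 5.6% of all miRNAs passed in the raised direction. In TAB the same quantity was 0.08 ± 0.07 (SE, adjusted p = 0.570), and 3.99% of all miRNAs passed in the raised direction. Without day 14, whose sham arrays lay apart, the sham value was 0.34 ± 0.06 (SE, adjusted p = 0.00765), and the interaction had an adjusted p of 0.00116. Without scaling of the arrays the TAB value was 0.36 (adjusted p = 0.0112) beside 0.39 in sham (adjusted p = 0.0182), so both surgeries then passed. The other 3 miRNAs passed in neither surgery and in neither direction with quantile normalization over the 20 arrays, where 4.31% of all miRNAs passed as lowered in TAB and 7.33% in sham.

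In order of level, miR-451 ran from the sham samples of days 5, 7, 3, 28, and 14 to the TAB samples of days 3, 5, 14, 28, and 7. Neighbours in this order differed by more than 2 SE of repeated arrays at 5 of 9 steps. The steps between the sham samples of days 5, 7, and 3 were smaller than that, as were those between the TAB samples of days 5, 14, and 28. For miR-486 the order mixed the surgeries, with TAB day 7 lowest and sham day 14 highest, and neighbours differed by less than 2 SE at all 9 steps.

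The study's methods define a differentially expressed miRNA, with no test, as one with a log2 ratio more than 2 SD out among the ratios of a time point. Applied to levels normalized over the 20 arrays, that rule called miR-451 at days 5, 7, and 14, and not at days 3 and 28. The other 3 miRNAs were called on 0 days. It called 7.22%, 6.68%, 7.11%, 5.17%, and 6.36% of all miRNAs on the 5 days in turn. The methods set a quantile target for each surgery, and such levels were an alternative chosen after seeing the data. With 2 SD counted from 0, the rule then called miR-451 at day 7 and miR-486, as lowered, at days 3, 7, and 14. Counted from the mean of all ratios, which was -0.36 on each day, it called miR-451 at days 5 and 7 and miR-486, as lowered, at day 14.

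The change of miR-451 was set against that of miR-486 within each sample, which cancels a factor that multiplies every raw intensity of an array alike. It does not cancel background left in the intensities, and miR-451 lay nearer to the empty spots than miR-486. Nor is quantile normalization such a factor. The log2 ratio of miR-451 to miR-486 was higher in TAB than in sham on all 5 days, by 0.95, 1.42, 2.05, 1.32, and 0.60 on the 5 days in turn. The mean was 1.27 ± 0.24 (SE, n = 5), and the two-sided exact sign-flip permutation test gave p = 0.0625, the smallest that 5 days allow, so this design could not reach 0.05. The unscaled arrays gave 1.52 ± 0.24 (SE) and the same p. The difference of miR-451 exceeded that of miR-144 on all 5 days too, by 0.51 to 1.21 (mean 0.81), which was not tested.

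How far each miRNA moved depended on how the arrays were made comparable, so the comparison was repeated with 6 other scalings. Of these, the 75th percentile and the deposited processed table gave nearly the same values (1.21 and 1.22 for miR-451). They are not separate readings. miR-451 was higher in TAB and passed in all 6, with 0.55 to 1.22 on the log2 scale, or 1.47- to 2.32-fold. miR-144 was above 0 in all 6 and passed in 3. It fell short without scaling (0.05, adjusted p = 0.503), with a quantile target for each surgery (0.05, adjusted p = 0.398), and with scaling to small nuclear RNAs (0.04, adjusted p = 0.837). miR-144* changed direction, from -0.10 with small nuclear RNA scaling to 0.56 with the 75th percentile.

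miR-486 was below 0 in all 6 other scalings and passed in 5 of them. The log2 difference was -0.31 with each array set to its 75th percentile (adjusted p = 0.0248) and -0.32 in the deposited processed table (adjusted p = 0.0227). It was -0.96 without scaling (adjusted p = 0.00376), -0.98 with a quantile target for each surgery (adjusted p = 0.00130), and -0.97 with small nuclear RNA scaling (adjusted p = 4.78e-09). With spike-in scaling it was -0.47 and did not pass (adjusted p = 0.0991). In the small nuclear RNA and spike-in settings the SE of miR-486 was the same as that of miR-451, miR-144, and miR-144*. limma thus used a pooled spread there, and these p-values do not rest on the spread of miR-486 itself. The scalings also moved the median of all 928 miRNAs, from -0.26 to 0.40, and quantile normalization over the 20 arrays put it at -0.02. Relative to that median, miR-451 was higher by 0.81 to 1.75 and miR-486 ranged from -0.73 to -0.15 over 10 ways of preparing the values. These are not 10 separate readings. The 75th percentile, no scaling, spike-in scaling, and small nuclear RNA scaling must give the same values (0.81 and -0.71), since a shift of a whole array cancels.

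**Figure D4:**
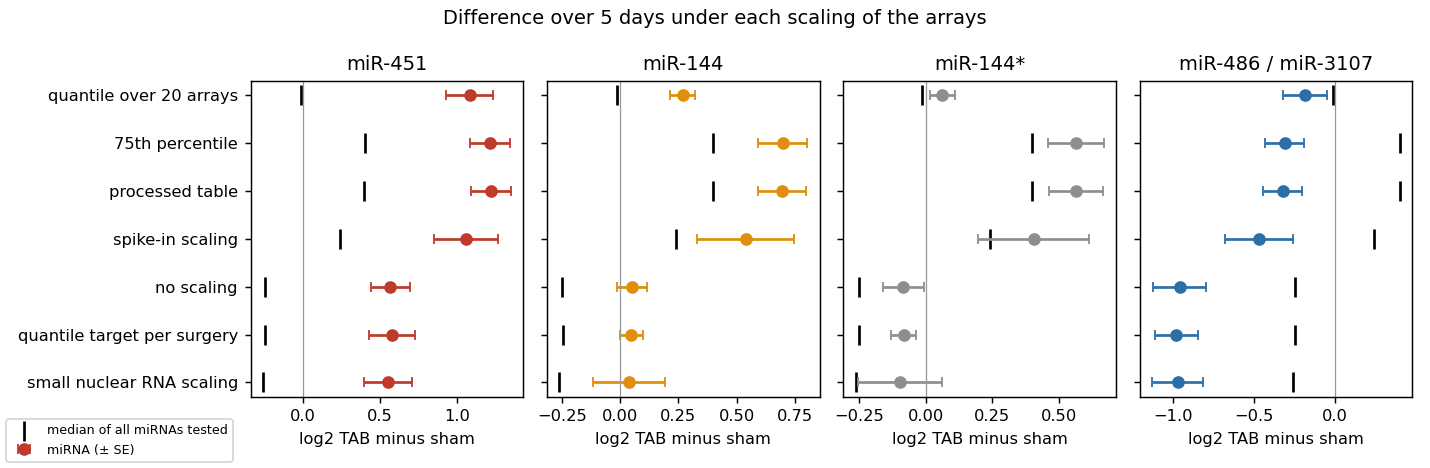
Log2 difference between TAB and sham over the 5 days (± SE) for each miRNA under 7 scalings of the arrays, with the median difference of all 928 miRNAs tested as a black bar. Each panel has its own horizontal axis; miR-451 lies to the right of 0 and of the median in all 7 rows, and miR-486 to the left of both.

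Over the 10 samples, the level of miR-451 went with that of miR-144 (r = 0.96, and 0.84 after the mean of each surgery was removed). miR-144 was found on 5 TAB arrays and 0 sham arrays, so most of its levels in this r lie near the empty spots. The r of miR-451 with miR-486 was -0.37, and 0.03 after the surgery means were removed. The samples share the scaling and, in the first value, the step between the surgeries, and no test was made. Among the 592 miRNAs found on at least 10 arrays, the 5 whose levels were most like that of miR-451 were miR-222 (r = 0.96), miR-132 (0.96), miR-5117 (0.96), miR-204 (0.96), and miR-615-5p (0.95). All 5 passed in the raised direction, with log2 differences from 0.29 for miR-204 to 1.53 for miR-5117. The choice favours that direction, since r holds the step between the surgeries. With the surgery means removed, these 5 ranked 2, 4, 6, 7, and 8 in the order named. The miRNAs at ranks 1, 3, and 5 did not pass as raised, and those at ranks 3 and 5 passed as lowered. The 5 most like miR-486 were miR-29b-2* (r = 0.84), miR-694 (0.76), miR-122 (0.75), miR-192 (0.73), and miR-3058* (0.71). Of these, miR-694 (-0.37, adjusted p = 0.0155) and miR-3058* (-0.22, adjusted p = 0.0287) passed in the lowered direction. miR-486* stood at rank 13 (r = 0.66).

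Lists of miRNAs known from blood and from other cells were read beside these results. Of 13 tested miRNAs that are abundant in red cells or their precursors but made by many cells, 7 rose and 0 fell, with a median log2 difference of 0.44, where 19.3% of all 928 miRNAs rose, 21.8% fell, and the median was -0.02. The 7 that rose included miR-16 (1.20 ± 0.23 SE, adjusted p = 0.0108), miR-15a (0.92 ± 0.18 SE, adjusted p = 0.0104), and miR-92a (0.53 ± 0.12 SE, adjusted p = 0.0170). The brightest of the 13, miR-22, did not pass (-0.17 ± 0.22 SE, adjusted p = 0.569). Also below 0 without passing were miR-96 and miR-183, found on 0 arrays of either surgery, and miR-182, found on 1 sham array and 0 TAB arrays. Of 5 miRNAs that fall as human red cell precursors mature, 3 rose and 0 fell: miR-221 (1.02), miR-222 (0.81), and miR-223 (0.81, a miRNA of granulocytes and monocytes). The other 2, miR-150 (0.0008) and miR-155 (0.15), did not pass. The log2 of the summed intensity of the 13 was 13.75 to 14.14 in TAB and 13.34 to 14.38 in sham, and that of the 4 red blood cell miRNAs was 10.21 to 10.49 and 10.04 to 10.57, so in both the TAB range lay inside the sham range. The brightest miRNA weighs most in such a sum. Among the 4 it was miR-486 (mean level 9.63 in TAB and 9.82 in sham), and the brightest of the 13 had 13.41 and 13.58.

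White blood cell miRNAs moved in the same direction. Of 7 tested, 5 rose and 0 fell, with a median log2 difference of 0.41, and the log2 of their summed intensity was 10.32 to 10.66 in TAB and 9.78 to 10.31 in sham. This list shares miR-223, miR-150, and miR-155 with that of miRNAs falling as red cell precursors mature. The rise of miR-223 thus counts in both. miR-142-3p, found in blood cells of nearly all lineages, rose by 1.11 ± 0.16 (SE, adjusted p = 0.00488). Of 4 vessel miRNAs, 1 rose, miR-126-5p of the endothelium (0.75 ± 0.10 SE, adjusted p = 0.00390). Of the 7 heart muscle miRNAs 2 rose and 1 fell, with a median of -0.02. The shares for vessel and heart muscle are near those of all miRNAs (19.3% raised, 21.8% lowered), and that for white blood cells is above them. Of 5 tested miRNAs of liver, brain, and epithelium, 0 rose and 0 fell (median -0.04). The part of these cells in the levels of miR-451 and miR-144 was not tested. In whole tissue, more cells of a type and more RNA in each cell cannot be told apart, and no count of red cells or measure of blood volume was used here.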

How the data were processed

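Per the labels and the methods of the study, total RNA of left ventricles was labelled with Cy5 and hybridized to 20 Mouse & Rat miRNA OneArray slides (Phalanx), read with GenePix. The authors deposited the raw intensity and the GenePix flag of each of 4608 spots, as whole numbers up to 65535 with no background subtracted. Their deposited processed table, also intensity, holds 1 value per miRNA and array. The methods name removal of negative flags, the median of repeated spots, and quantile normalization within technical replicates. The median TAB minus sham difference of all miRNAs in that table was 0.397. It was 0.399 with the 75th percentile and -0.248 without scaling, so the table does not behave like unscaled arrays. The processed table was used as an alternative.

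From the raw intensity the median of 3 spots was taken, 158 probes with a negative flag on every spot were dropped, and values were log2-transformed and quantile-normalized over the 20 arrays. The 2 arrays of a pair were averaged. limma 3.58.1 (R 4.3.3; lmFit, eBayes) was fitted with a block for day, leaving 4 residual degrees of freedom. Single days, the interaction, and the late minus early contrast were taken on the 20 arrays, with a mean for each combination of surgery and day. p-values are two-sided and adjusted over 928 miRNAs by the Benjamini-Hochberg method. Code was tested on simulated data. The array gives no counts, so the 5 samples of each surgery limit precision. Rat probes carry no names and were not used here.

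The 4 miRNAs were always named. The 5 miRNAs nearest in pattern to miR-451 and to miR-486, miR-486*, and list members past the threshold could be named too. Some list members that did not pass are named beside them. The miRNAs, the lists, and the tests were chosen with earlier results of these data known. miR-363, on 1 list of 14, has no probe of that name, and miR-124, on the list of liver, brain, and epithelium, did not pass the filter. Scaling, flags, spots, background, day, and left-out samples were varied.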

Additional observations from a re-analysis of the deposited data

Results flagged for a closer look

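The difference of miR-451 between TAB and sham varied between days, by a test of the interaction of surgery and day in limma (adjusted p = 0.00200, against repeated arrays). It was lowest at days 3 and 14 (0.72 on the log2 scale on both) and highest at day 7 (1.68), with TAB above sham on each of the 5 days. The adjusted p was 0.0519 without scaling of the arrays and 0.00116 without day 14. Since each day has 1 RNA sample of each surgery, a difference between days and a difference between those samples cannot be told apart.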

How the results depend on the processing

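For the comparison over the 5 days 19 alternatives were tried, of which the spike-in and the small nuclear RNA scaling were chosen after seeing the data, as was leaving day 14 out of the contrasts between days. miR-451 passed in all 19 (0.55 to 1.70, highest adjusted p 0.0195) and miR-144 in 16. The other changes of call for the 4 miRNAs over the 5 days came with scalings. miRNAs raised and lowered numbered 593 and 110 with the 75th percentile, 592 and 113 in the processed table, 93 and 86 with spike-in scaling, 27 and 500 without scaling, 37 and 634 with a quantile target for each surgery, and 30 and 383 with small nuclear RNA scaling, against 179 and 202. Over the settings that left out a day or an array of each pair, 110 to 169 were raised and 115 to 206 lowered. The log2 difference of miR-144 fell below the threshold without scaling (0.0513), with the target for each surgery (0.0486), and with small nuclear RNA scaling (0.0381). That of miR-144* turned to -0.0828, -0.0814, and -0.0960 under the same 3 settings and passed with the 75th percentile (0.56) and in the processed table (0.56). That of miR-486 passed with the 75th percentile (-0.31), in the processed table (-0.32), without scaling (-0.96), with the target for each surgery (-0.98), and with small nuclear RNA scaling (-0.97). With small nuclear RNA scaling and with spike-in scaling the SE was the same for all 4 miRNAs. Their p-values there rest on a pooled spread and not on the spread of each miRNA.

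On single days, these values changed direction. Without scaling, miR-144 was -0.0520 at day 3 and -0.0760 at day 5, miR-144* was -0.0862 at day 3 and -0.19 at day 5, and miR-486 was -0.19 at day 28. With the target for each surgery, miR-144 was -0.0011 at day 3, -0.0082 at day 14, and -0.0096 at day 28, miR-144* was -0.0436, -0.12, and -0.0777 at days 3, 5, and 28, and miR-486 was -0.42 at day 28. miR-144* at day 7 was 0.46 with the 75th percentile and 0.46 in the processed table. The late minus early contrast turned in TAB for miR-144 (-0.16 with the 75th percentile and -0.15 in the processed table) and miR-144* (-0.19 and -0.19). In sham it turned for miR-144* (0.0338 and 0.0314) and for miR-486 (-0.0246 without scaling and -0.27 without day 14). Calls moved too. miR-486 passed as lowered on 4 days without scaling (lowest -1.28), on 4 with the target for each surgery (lowest -1.39), and on 2 with the 75th percentile and in the processed table. miR-144 passed on 0 days without scaling, on 1 with the target for each surgery, and on 5 with the 75th percentile and in the processed table. The late minus early contrast passed in TAB without scaling for miR-451 (0.36), miR-144 (0.18), miR-144* (0.14), and miR-486 (0.60), and in the processed table for miR-144 in TAB (-0.15) and sham (0.19) and for miR-144* in TAB (-0.19). In that table the interaction of surgery and day also passed for miR-144 (adjusted p = 0.00329) and miR-144* (adjusted p = 0.0158), and without scaling it did not for miR-451 (adjusted p = 0.0519). miR-451 lost its call at day 3 without scaling (0.17, adjusted p = 0.331) and at day 14 with the target for each surgery (0.19, adjusted p = 0.100).

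Array numbers did not pair the samples: the correlation of array 1 minus array 2 between TAB and sham was -0.04 to 0.18 over the days. With a replicate block on the 20 arrays, miR-451 differed by 1.08 (adjusted p = 4.07e-07), miR-144 passed at day 3 (adjusted p = 0.0445), and miR-486 passed at day 14 (adjusted p = 0.0421). No other call of the 4 miRNAs changed with the block.

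miR-144 and miR-144* lie close to the empty spots.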

Other observations

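miR-122, the liver miRNA among those nearest in level to miR-486, was found on 10 arrays of sham and 3 of TAB. Its level was 7.16 in sham and 6.47 in TAB, lower in TAB on all 5 days, and the log2 difference of -0.69 ± 0.29 (SE) did not pass the test (adjusted p = 0.109).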
